A study of Mus musculus with 2 samples.

Results

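Intronic open chromatin away from start sites was described in spleen of B6CASTF1/J mice, which are first-generation hybrids of a C57BL/6 and a CAST parent. DNase-seq was run, which sequences the places where the nuclease DNase I cuts nuclear DNA. There was 1 group of 2 libraries, labelled as biological replicates 1 and 2, both from females 36 days old, with no treatment or engineered allele named. The descriptions number the females differently and the donor entry is the same, so the spread between the libraries may be partly technical. Whole spleen is a mixture of B cells, T cells, erythroid precursors, macrophages and stroma, and a bulk library cannot tell a site open in few cells from one that is weakly open in many.

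An intronic peak was a peak of the more stringent deposited list that kept clear of 1 kb on either side of every annotated start site. Start sites were those of the basic transcripts of GENCODE vM21, of any gene type. The midpoint of the peak had to lie inside a protein-coding gene but in no exon. Position chose the peaks and no signal was used. Replicate 1 had 11055 such peaks among 42454, or 26.0% (95% Wilson interval 25.6 to 26.5). Replicate 2 had 18686 among 60683, or 30.8% (30.4 to 31.2), which gave 28.4% ± 3.36 (SD, n = 2). They were 47.4% and 49.1% of the peaks away from start sites. The window around start sites removed 5683 and 7149 further peaks with a midpoint in an intron. Intervals here and below cover counting error only. A test of 2 libraries cannot go below an exact two-sided sign-flip p of 0.5, so no p-value is given, and each value is set beside its counterpart in the other library.

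Introns are transcribed and then spliced out, but their DNA also carries enhancers, silencers and sites of the architectural protein CTCF, which anchors chromatin loops. The first intron borders the promoter and is known for holding regulatory elements of its own gene, whereas an element in a later intron may act on a neighbouring gene. In blood cells such elements are bound by PU.1 and other ETS factors, RUNX factors, EBF1 and E proteins in B cells, and GATA1 in erythroid cells, and binding leaves them open to DNase I. A bound protein can also shield its own bases, which appear as a footprint inside the open region.

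Of the peaks, 3817 and 7137 lay in a first intron, meaning the first of any basic transcript of the host, and 6785 and 10808 lay in later introns. The other 453 and 741 were inside a gene body and outside exons but in no intron of a basic transcript. A single host was found for 10667 and 18030 peaks, and 388 and 656 lay in more than 1 protein-coding gene.

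The sequences that follow are the central 150 bases of 11 intronic peaks, from the mm10 assembly (GRCm38), plus strand. Those of Ets1, Sptb and Spi1 were the strongest in lists of blood cell genes, and that of Gm10722 the strongest of all shared intronic peaks by mean rank. The Chd8 peak was the strongest in a first intron of 1 host with under 50% repeat, the gene model Gm20388 left out. The rest were shown because a consensus sequence of a known regulator lay in a footprint of both libraries. Capitals mark the matches named for each, on either strand, and the consensus sequences are given further on. The examples with a footprint, and Chd8, were added after the data had been seen.

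Ets1, a transcription factor of lymphocytes, later intron, ETS match, chr9:32747796-32747945: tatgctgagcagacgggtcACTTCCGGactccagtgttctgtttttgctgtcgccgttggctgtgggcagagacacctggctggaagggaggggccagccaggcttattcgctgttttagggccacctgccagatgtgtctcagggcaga
Sptb, erythroid spectrin, later intron, AP-1 match, chr12:76593906-76594055: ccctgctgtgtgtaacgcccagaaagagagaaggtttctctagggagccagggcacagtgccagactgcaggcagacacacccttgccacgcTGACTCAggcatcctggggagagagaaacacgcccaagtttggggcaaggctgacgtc
Spi1, the gene of PU.1, in no intron of a basic transcript, E-box and SP/KLF matches, chr2:91083016-91083165: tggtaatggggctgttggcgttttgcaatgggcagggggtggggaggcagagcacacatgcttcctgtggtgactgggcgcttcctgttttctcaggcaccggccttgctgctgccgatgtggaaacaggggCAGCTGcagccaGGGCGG
Chd8, a chromatin remodeller, first intron, NFY and SP/KLF matches, chr14:52244496-52244645: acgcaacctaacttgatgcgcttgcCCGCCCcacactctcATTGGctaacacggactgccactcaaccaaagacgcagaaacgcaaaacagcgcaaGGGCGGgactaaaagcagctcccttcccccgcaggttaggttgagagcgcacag
Gm10722, a gene model in repeats, later intron, no match, chr9:3002056-3002205: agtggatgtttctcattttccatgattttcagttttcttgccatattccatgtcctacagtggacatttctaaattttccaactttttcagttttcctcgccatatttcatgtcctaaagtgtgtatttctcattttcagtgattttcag
Agrp, first intron, CTCF match, chr8:105622506-105622655: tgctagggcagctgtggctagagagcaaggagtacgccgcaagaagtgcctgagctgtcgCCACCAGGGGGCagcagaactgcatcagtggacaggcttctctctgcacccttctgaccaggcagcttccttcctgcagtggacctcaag
Rad51b, later intron, PU.1 match, chr12:79646706-79646855: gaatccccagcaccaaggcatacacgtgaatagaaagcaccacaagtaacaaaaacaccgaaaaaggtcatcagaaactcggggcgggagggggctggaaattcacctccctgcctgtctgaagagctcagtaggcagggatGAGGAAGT
Ikzf1, the lymphoid factor Ikaros, later intron, RUNX match, chr11:11766246-11766395: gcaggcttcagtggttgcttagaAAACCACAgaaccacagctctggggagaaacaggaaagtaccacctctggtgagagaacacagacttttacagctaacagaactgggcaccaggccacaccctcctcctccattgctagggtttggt
Sorl1, later intron, EBF match, chr9:42028906-42029055: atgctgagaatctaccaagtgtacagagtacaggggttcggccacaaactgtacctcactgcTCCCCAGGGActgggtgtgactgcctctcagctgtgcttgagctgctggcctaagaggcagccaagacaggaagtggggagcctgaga
Stk24, first intron, ETS-IRF match, chr14:121366156-121366305: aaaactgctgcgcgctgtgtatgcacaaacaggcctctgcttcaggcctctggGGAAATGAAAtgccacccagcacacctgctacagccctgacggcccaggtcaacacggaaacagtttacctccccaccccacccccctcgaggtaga
Art3, later intron, GATA-E-box match, chr5:92398326-92398475: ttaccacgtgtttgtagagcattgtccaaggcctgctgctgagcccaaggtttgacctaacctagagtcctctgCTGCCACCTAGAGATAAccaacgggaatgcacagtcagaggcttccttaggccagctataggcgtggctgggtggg

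The deposited signal of a peak is the authors' own value on a scale that the sources used here do not give, and it served to rank peaks within a library. The Ets1 peak had a signal of 3.798 in replicate 1 and 7.47 in replicate 2, and the Spi1 peak 4.04 and 6.51. The Sptb peak was weaker, with 2.28 and 3.30. All 3 stood above the median intronic peak in both libraries. The strongest peak of the B cell list lay in Cd74, the invariant chain of antigen presentation (5.08 and 8.45), and its sequence is not shown. The Chd8 peak had 13.5 and 20.4, at ranks 358 and 407 of all peaks. The Gm10722 peak had 45.5 and 30.3, at ranks 2 and 19, and 100% of its bases were annotated as repeats, where reads can be shared among copies. Among the footprint examples the CTCF match in Agrp had 8.64 and 11.3, the PU.1 match in Rad51b 4.95 and 11.1, and the EBF match in Sorl1 7.05 and 14.3. The GATA-E-box match in Art3 was the faintest, with 1.79 and 1.71.

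Intronic peaks were of middling strength, and few reached the top of either library. Their signal ran from 0.243 to 45.5 with a median of 1.08 in replicate 1, and from 0.0718 to 32.1 with a median of 0.928 in replicate 2. Peaks at start sites had medians of 2.69 and 2.32. The strongest decile of all peaks held 0.688% and 1.29% of intronic peaks against 21.0% and 24.1% of start site peaks, and 1.15% and 1.89% of intergenic ones. The open chromatin around them was also narrow. Within 1 kb of the midpoint a median of 290 and 329 bases had a listed false discovery rate (FDR) of cutting, which the authors list only under 0.05, against 958 and 982 bases at start sites. Intronic peaks held 2.03 and 2.54 footprints each, against 2.995 and 3.32 at start sites, and 10.9% and 5.57% had none, against 17.6% and 13.4% at start sites. At equal rank the order of the means depended on strength. In decile 1 intronic peaks held 4.41 and 4.47 each, against 4.935 and 4.855 at start sites. In decile 6 they held 2.12 and 2.57, against 1.69 and 2.17.

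Their sequence differed from the introns around them. The median GC content of the central 150 bases was 52.7% and 52.0%, where intron sequence as a whole had 42.3% and start site peaks had 64.7% and 64.0%. Annotated repeats made up 10.6% and 10.8% of peak bases against 29.1% of intron sequence. The parts of GC content and of read mapping in repeats in the recovery of peaks were not tested.

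The few strongest intronic peaks were nearer to start site peaks in GC content, breadth and SP/KLF letters, but not in others. Among those in the strongest 2 deciles of a library (368 and 1261 peaks) the median GC content was 59.3% and 56.0%, and 623 and 689 bases within 1 kb were listed. In deciles 6 to 10 the GC content was 51.3% in each library and 265 and 273 bases were listed. The SP/KLF consensus GGGCGG, common in promoters, was in 34.0% and 20.8% of the strong centres and in 7.94% and 7.41% of those in deciles 6 to 10. PU.1 letters were in 5.16% and 11.02% of the strong centres, against 2.47% and 2.90% at start sites, and ETS letters in 0.815% and 1.27%, against 4.74% and 4.28%. Strong members lay nearer to a start site, at a median of 9.79 and 12.8 kb against 25.5 and 24.0 kb. At the edge of the window around start sites strength did not jump, among peaks with a midpoint in a protein-coding gene and in no exon. Those up to 0.5 kb beyond the edge (682 and 1117) had median signals of 1.14 and 1.03. Those up to 0.5 kb inside it (1347 and 1931) had 1.11 and 0.948.

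By mean rank of signal over both libraries, the 10 strongest shared intronic peaks lay in Gm10722 and 7 other hosts. Mid1, which encodes an E3 ubiquitin ligase of microtubules and spans the pseudoautosomal boundary of the X chromosome in C57BL/6, held 3 of them in its later introns. Its strongest had signals of 21.9 and 32.1 at ranks 13 and 10, the next 21.9 and 31.9, and the last 13.4 and 21.9. The others lay in Sptbn4, a spectrin (12.9 and 19.9), Ywhaz, a 14-3-3 protein (11.01 and 19.6), Prdm2, a methyltransferase (10.9 and 19.98), and Nr1d1, a repressor of the circadian clock (11.2 and 17.2). Chd8 and a long gene model, Gm20388, held the remaining ones. The peaks in Ywhaz and Nr1d1 lay 1206 and 1342 bases from their host's nearest start site, just outside the window.

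First introns were denser in peaks than later introns, per Mb of intron sequence that could hold a midpoint. First introns made up 274.5 Mb, or 29.9%, of 917.2 Mb of such sequence, and later introns 609.3 Mb. First introns had 13.9 peaks per Mb in replicate 1 and 26.0 in replicate 2, and later introns had 11.1 and 17.7. The ratio was 1.25 (1.20 to 1.30) and 1.47 (1.42 to 1.51), a mean of 1.36 ± 0.154 (SD, n = 2). The density fell with intron number, from 12.1 and 20.8 peaks per Mb in introns number 2 to 10.6 and 16.3 in introns number 5 and beyond, with number 4 (11.8 and 18.4) slightly above number 3 (10.98 and 17.99). At like intron length the ratio was 1.68 and 1.92 in introns under 5 kb, 1.71 and 2.01 in those of 20 to 50 kb, and 1.39 and 1.47 in those over 100 kb, and it was above 1 in 5 of 5 length bins in each library.

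First introns also lie nearer to start sites, and at equal distance from the nearest start site of the host the excess held in both libraries only at 2 to 5 kb beyond counting error. There first introns had 21.4 and 38.5 peaks per Mb and later introns 18.4 and 29.3, a ratio of 1.16 (1.03 to 1.31) and 1.31 (1.20 to 1.44). At 1 to 2 kb the ratio was 1.12 (0.944 to 1.35) and 1.23 (1.07 to 1.42), and at 5 to 10 kb 1.01 (0.910 to 1.13) and 1.18 (1.09 to 1.29). At 10 to 20 kb the libraries parted, with a ratio of 0.895 (0.813 to 0.985) in replicate 1 and 1.16 (1.08 to 1.25) in replicate 2, so that no direction held there. At 50 to 100 kb first introns had 6.37 and 12.1 peaks per Mb and later introns 11.1 and 18.2, a ratio of 0.574 (0.496 to 0.662) and 0.666 (0.599 to 0.740). Thus the order of the classes turned over with distance. Beyond 100 kb the ratio was 0.740 and 0.807, and it was 0.457 and 0.491 once the gene model Gm20388 was left out, an alternative chosen after seeing the data. That model has an intron of 4384 kb which runs across other genes, and it held 120 and 202 peaks, of which 74 and 108 lay in another gene too.

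**Figure D1:**
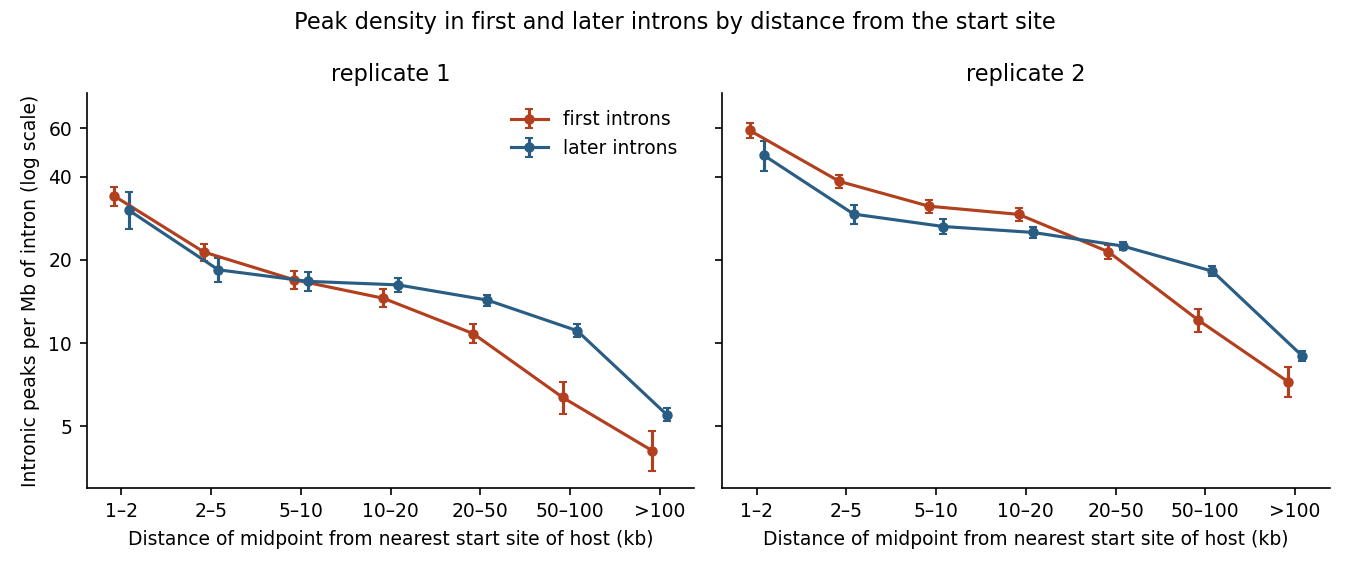
Intronic peaks per Mb of intron sequence (log scale) against the distance in kb from the nearest start site of the host, for first and later introns of each library, with exact 95% Poisson intervals on the counts. First introns lie above later ones at 2 to 5 kb (21.4 against 18.4 and 38.5 against 29.3) and below them at 50 to 100 kb (6.37 against 11.1 and 12.1 against 18.2).

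Within introns of at least 10 kb the peaks of first introns were densest at the 5' end. When each was cut into 5 equal segments from the 5' end, those of first introns had 15.2, 10.7, 11.8, 11.8 and 13.0 peaks per Mb in replicate 1 and 28.1, 22.1, 22.8, 22.7 and 23.8 in replicate 2. The first segment was thus the densest in both, although its sequence next to the start site had been removed. The last segment came next in both, so the density did not fall steadily along the intron. Later introns showed no such excess at the 5' end, with 8.28 to 8.64 peaks per Mb in replicate 1 and 13.2 to 14.6 in replicate 2. Peaks of first introns also lay closer together. The median distance from a peak to the nearest other peak in an intron of its class was 13.8 and 4.83 kb for first introns and 19.1 and 7.99 kb for later ones.

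Which regulators' consensus sequences lay in the peaks was asked of the central 150 bases, on both strands, beside windows of the same length 1 kb to either side. The 8-letter sequences were GAGGAAGT for PU.1, CCGGAAGT for other ETS factors, TGTGGTTT for RUNX and ATGCAAAT for the octamer. The 9-letter ones were TTGCNNCAA for C/EBP and CAAAGTCCA for the liver factor HNF4. The shorter ones were those of GATA factors (AGATAA), of E proteins at E-boxes (CAGCTG), of AP-1 (TGANTCA), of the promoter factor NFY (CCAAT), of SP and KLF factors (GGGCGG) and of TCF/LEF factors (CTTTGAT). Longer ones, named only, were those of CTCF, EBF, NF-kB, MEF2, NRF1, IRF and HNF1 and the composites ETS-IRF and GATA-E-box. The GATA-E-box composite contains the GATA letters, and a match of the ETS-IRF composite can overlap a PU.1 match. A match describes the sequence and does not show that a factor binds. The windows 1 kb away were not matched to the peak centres in GC content. What part base composition has in the ratios below was not tested. Of the 21 sequences 16 were more frequent in intronic centres than in the windows 1 kb away, and 16 were more frequent than in start site peaks, in each library.

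CTCF had the highest ratio to the windows 1 kb away of the sequences searched. Its consensus was in 19.7% of intronic centres in replicate 1 and 12.6% in replicate 2, against 1.42% and 1.27% of the windows 1 kb away, ratios of 13.9 and 9.93. By share alone the E-box (15.5%) and NFY (13.5%) were higher in replicate 2. Start site peaks had the CTCF consensus in 4.09% and 3.81% and intergenic peaks in 23.0% and 15.9%. Of the matches 83.7% and 92.0% lay in a footprint, although footprints covered 16.5% and 19.6% of the window bases. Matches were more frequent in later introns, with 23.8% (22.8 to 24.9) and 15.7% (15.01 to 16.4), than in first introns, with 12.4% (11.4 to 13.5) and 7.73% (7.14 to 8.38). The share rose with intron number, from 16.0% and 10.8% in introns number 2 to 28.1% and 18.6% in introns number 5 and beyond.

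Later introns had the higher share at most equal distances, and at equal strength too outside the strongest decile. At 10 to 20 kb from a start site the share was 12.5% and 7.83% in first introns and 27.6% and 18.7% in later ones. Later introns were higher in 6 of 7 distance bins, the exception being the bin beyond 100 kb, where first introns had 24.7% and 13.5% and later introns 20.3% and 12.5%. Without Gm20388 that bin had 17.6% (11 to 27.1) and 9.40% (5.68 to 15.2) in first introns, within counting error of the later ones. Later introns were higher in 10 of 10 deciles of signal rank, but decile 1 had too few matches to separate the classes. There 1 of 36 first intron peaks and 1 of 34 later ones had a match in replicate 1, and 3 of 101 and 6 of 129 in replicate 2. The orientation of matches was uneven too, since 44.3% (42.2 to 46.4) and 44.9% (42.9 to 46.9) ran along the host's direction of transcription, against 53.8% (48.2 to 59.3) and 48.5% (43.9 to 53.0) of those 1 kb away, a gap beyond counting error in replicate 1 only.

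Pooled over all distances, intronic peaks with and without a CTCF match were distributed in opposite ways. The 2182 and 2349 with a match were sparser in first introns, with 1.73 and 2.01 per Mb against 2.65 and 2.79 in later introns. That gave a ratio of 0.651 (0.586 to 0.722) and 0.722 (0.655 to 0.795). The 8873 and 16337 without a match were denser there, with 12.2 and 24.0 per Mb against 8.48 and 14.95, a ratio of 1.44 (1.37 to 1.5) and 1.60 (1.55 to 1.66). These ratios were not taken at equal distance from the start site. At 50 to 100 kb all intronic peaks together were sparser in first introns (0.574 and 0.666), so the opposition may not hold there. Open chromatin around CTCF matches was narrower, with 262 and 270 listed bases within 1 kb against 312 and 349.

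Sequences of blood cell factors were next. PU.1, the ETS factor of myeloid and B cells, had its consensus in 6.52% and 7.45% of intronic centres, 6.38 and 7.18 times the share 1 kb away, and in 2.47% and 2.90% of start site peaks. The share was 7.94% (7.12 to 8.84) and 8.20% (7.58 to 8.86) in first introns and 5.85% (5.32 to 6.43) and 7.01% (6.55 to 7.51) in later ones, a smaller contrast than for CTCF and opposite in direction. RUNX was in 3.16% and 3.36% (3.05 and 3.11 times) and the ETS-IRF composite of lymphoid enhancers in 3.56% and 3.86% (2.70 and 3.03 times). The EBF consensus of the B cell factor EBF1 was in 1.15% and 1.25% (3.18 and 3.21 times), and 55.3% and 78.4% of its matches were in a footprint. PU.1 matches were in a footprint in 12.4% and 17.6% only, no more than the share of window bases there. The E-box was in 14.0% and 15.5% (1.76 and 1.95 times) and the octamer of POU factors in 1.84% and 2.12% (2.33 and 2.68 times).

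The GATA letters by themselves showed no common direction, at 6.27% (5.83 to 6.74) against 7.32% 1 kb away in replicate 1 and 7.99% (7.61 to 8.39) against 7.55% in replicate 2. The composite of an E-box and GATA, to which erythroid complexes of TAL1 and GATA1 bind, was rare but enriched, in 0.678% and 0.894% of intronic centres, 5.77 and 7.42 times the share 1 kb away. Intergenic peaks had it in 0.306% and 0.556%, and start site peaks in 0.115% and 0.208%. NFY (0.868 and 0.817 times), TCF/LEF (0.709 and 0.745 times) and the liver factor HNF4 (0.889 and 0.727 times) were below the windows 1 kb away. HNF1, another liver factor, had 0 matches in 11055 and 18686 centres, which allows at most 0.0347% and 0.0206%. A sequence of its 12 letters can be this rare by chance, so the 0 does not show that it was depleted. The ETS letters were in 0.651% and 0.605% of intronic centres, 7.58 and 4.26 times the share 1 kb away, and in 4.74% and 4.28% of start site peaks.

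**Figure D2:**
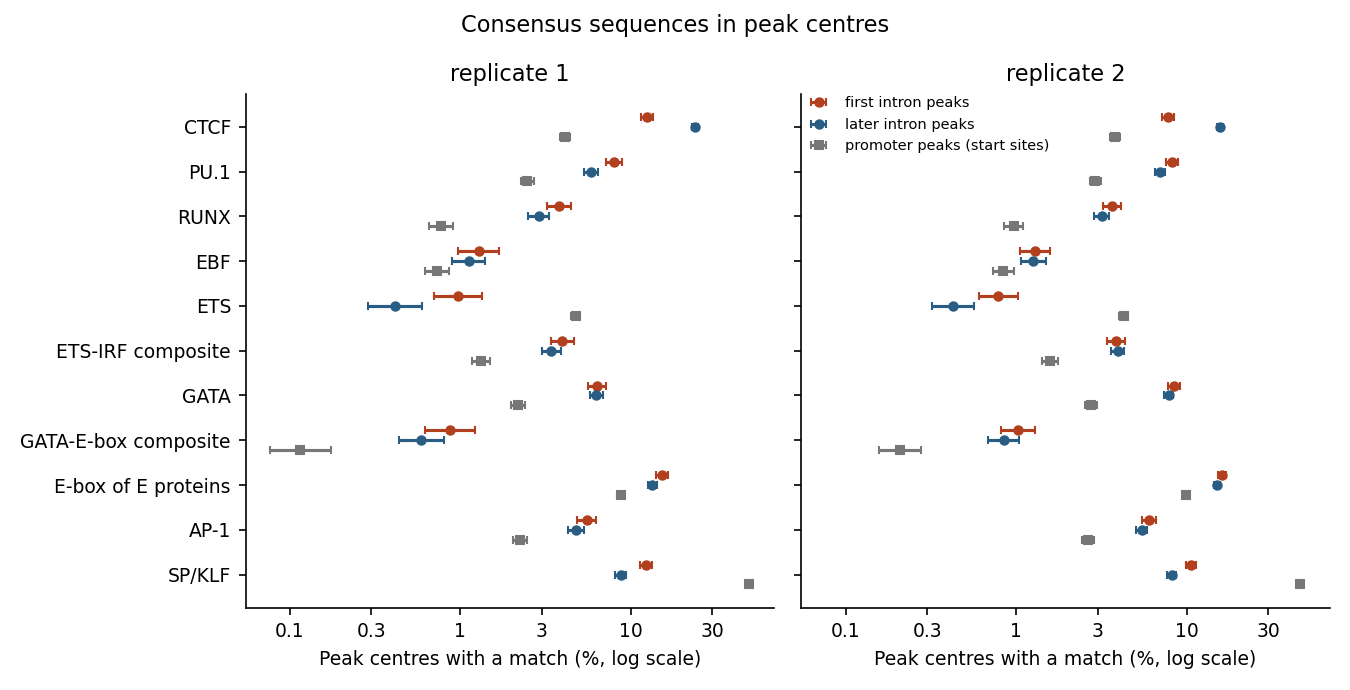
Share of peak centres of 150 bases with a match (%, log scale) for 11 consensus sequences, in peaks of first introns, later introns and start sites of each library, with 95% Wilson intervals. In percentage points CTCF is the sequence whose share differs most between later introns (23.8% and 15.7%) and first introns (12.4% and 7.73%), and SP/KLF and ETS are higher at start sites.

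Nearly all intronic peaks of replicate 1 were found again in the other library, and a smaller share of those of replicate 2. Of those of replicate 1, 93.7% (93.3 to 94.2) overlapped a peak of replicate 2, and of those of replicate 2, 55.4% (54.7 to 56.1) overlapped one of replicate 1. Start site peaks were at 94.0% and 79.7%, and intergenic ones at 93.6% and 59.3%. The lists differ in length, with 42454 peaks in replicate 1 and 60683 in replicate 2. The shorter list limits how many peaks of replicate 2 can be found again. With only the strongest 21227 peaks of each library kept, the shares of intronic peaks were closer, at 79.05% in replicate 1 and 72.24% in replicate 2. Over 10292 pairs of intronic peaks the signals of the libraries were ranked alike (Spearman's rho 0.83, which describes peaks that are not independent replicates). Peaks of replicate 2 that were not found again were weaker, with a median rank of 45580 against 26120 for shared ones. The deposited files give no total read depth, so depth and biology cannot be told apart here.

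The overlap varied with the kind of peak, and differently in each library. In replicate 1, 88.7% (87.3 to 89.99) of intronic peaks with a CTCF match were shared against 94.97% (94.5 to 95.4) of those without. In replicate 2 the order was the opposite, since 82.2% (80.6 to 83.7) of those with a match were shared against 51.6% (50.8 to 52.3) of those without. Peaks of replicate 2 with a PU.1 match were at 54.5%, with a RUNX match at 55.7% and with an EBF match at 52.4%, near the whole class. Peaks with the GATA letters were lower, at 43.5% (41.0 to 46.1), and those with the GATA-E-box composite at 43.1% (35.8 to 50.7). In replicate 1 these shares were 92.2% (89.97 to 93.98) and 96.0% (88.9 to 98.6), within counting error of the 93.7% of all intronic peaks. The composite was in 1.14% (0.934 to 1.39) of the peaks seen in replicate 2 alone and in 0.695% (0.553 to 0.875) of its shared ones. Peaks of replicate 2 with the GATA letters or the composite were also weaker, at a median of 63.2% and 58.55% down the ranked list. Those with PU.1, RUNX and EBF matches were at 53.2%, 54.05% and 54.7%. What part strength has in the lower sharing was not tested.

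Peaks of first introns were also less often shared in replicate 2 than those of later introns, at 51.0% (49.9 to 52.2) against 58.2% (57.2 to 59.1). At equal rank the gap was small among strong peaks, with 99.4% against 99.6% in decile 2 and 93.7% against 96.5% in decile 3, and wider further down. In decile 6 of signal rank 46.4% (43.2 to 49.7) of first intron peaks and 64.1% (61.5 to 66.7) of later intron peaks were shared, and in decile 8 25.2% (22.5 to 28.2) and 37.6% (35.1 to 40.2). First introns were lower in 9 of 10 deciles, and in 9 of 10 with CTCF matches left out, where decile 6 had 43.5% and 58.3%. In replicate 1 they were lower in 2 of 10, and the totals were 95.3% and 92.8%, so this pattern rests on replicate 2 alone.

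**Figure D3:**
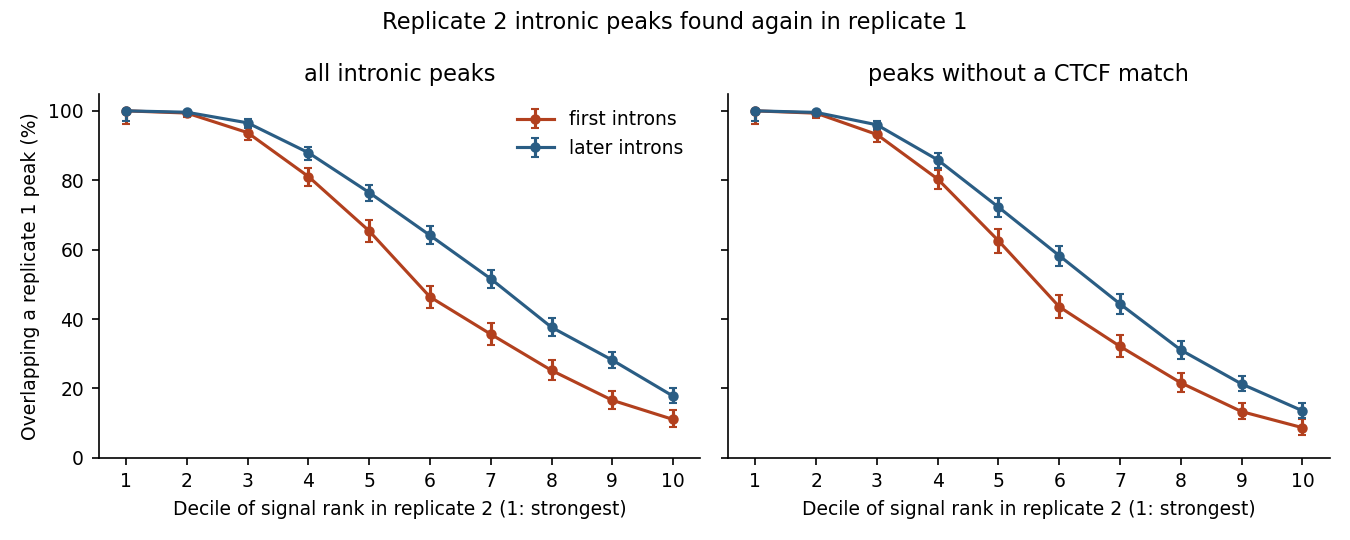
Share of replicate 2 intronic peaks that overlap a replicate 1 peak (%) by decile of signal rank in replicate 2, from the strongest to the weakest, for first and later introns, with 95% Wilson intervals. The left panel has all intronic peaks and the right panel those without a CTCF match, and in decile 6 first introns lie below later ones in both (46.4% against 64.1% and 43.5% against 58.3%).

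Pooled over all strengths, footprint numbers did not separate the intron classes. First intron peaks had 2.02 and 2.51 footprints each and later intron peaks 2.02 and 2.55, a ratio of 0.992 ± 0.00748 (mean and SD, n = 2). At equal rank first intron peaks had fewer, except among the strongest. In decile 7 they had 1.88 and 2.25 each, against 2.11 and 2.45 in later introns. In decile 1 they had 4.53 and 4.54, against 4.50 and 4.41. No interval was computed for these means.

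Of 19397 protein-coding genes with at least 200 bases of intron sequence outside the windows, 5359 (27.6%) hosted an intronic peak in replicate 1 and 6787 (35.0%) in replicate 2. Both libraries had 5162 of these hosts, replicate 1 alone had 197, replicate 2 alone 1625, and 12413 genes hosted none. A single peak was held by 55.8% and 46.9% of hosts. The 10% of hosts with most peaks, a group chosen by that count, held 33.7% and 38.0% of all pairs of peak and host and 23.0% and 23.7% of the hosts' intron sequence. The density per host was alike in the libraries, with a Spearman's rho of 0.90 over the genes hosting in both, which are not independent.

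Genes with more intronic peaks were longer, denser in peaks and more often open at the promoter. The 2988 and 3184 genes with 1 peak had a median of 29.3 and 24.6 kb of intron, and the 74 and 293 with 10 or more had 278 and 165 kb. The median density rose from 3.42 and 4.07 peaks per 100 kb to 5.02 and 8.15, where part of the rise is fixed by counting the peaks themselves. A peak at the gene's own start site was present in 50.2% and 50.8% of genes with 0 intronic peaks, 71.7% and 74.8% of those with 1, and 86.5% and 91.1% of those with 10 or more. This held at like length. Of genes with 5 to 20 kb of intron, 23.8% and 32.3% with a promoter peak hosted an intronic one against 12.6% and 15.6% without, and over 200 kb the shares were 82.9% and 88.9% against 38.0% and 43.8%.

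**Figure D4:**
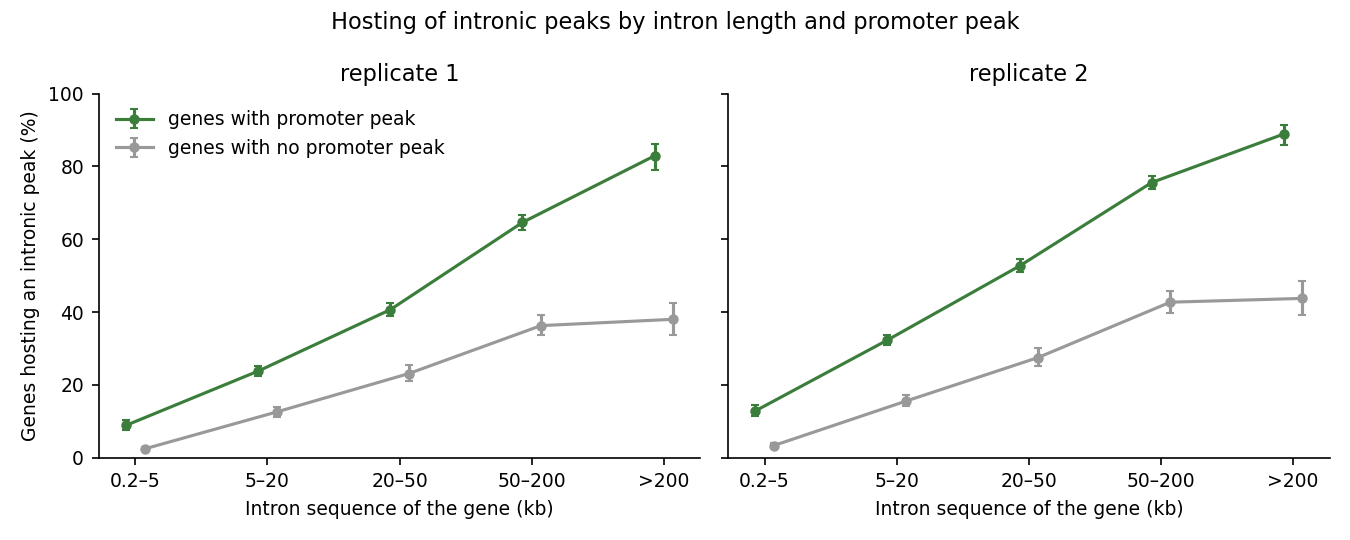
Share of protein-coding genes that host at least 1 intronic peak (%) by kb of intron sequence, for genes with and without a peak at their own start site in that library, with 95% Wilson intervals. The share rises with intron length and is higher with a promoter peak in each length bin (23.8% against 12.6% and 32.3% against 15.6% at 5 to 20 kb).

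The hosts with most shared peaks, Gm20388 aside, were long genes, among them regulators of B cells. Zmiz1, a transcriptional coactivator, held 21 peaks in replicate 1 and 34 in replicate 2 over 188.7 kb of intron, or 11.1 and 18.02 per 100 kb. Foxp1, a transcription factor of B cell development, held 21 and 45 over 570.9 kb. Ebf1, which specifies the B cell lineage, held 19 and 30 over 382.6 kb, and 2 and 1 of these lay in a first intron. Rin3, a guanine nucleotide exchange factor, held 16 and 23 in 100.4 kb. Prkce, a protein kinase C, held 22 and 30, Elmo1, which acts in cell migration and engulfment, 16 and 25, Iqsec1, an exchange factor of ARF proteins, 16 and 27, Pde4d, a cAMP phosphodiesterase, 15 and 24, and Wwox 17 and 24. Gse1 held 26 and 32 but lies inside Gm20388, and Fgfr2 held 41 and 70 in a gene model with an intron of 2909 kb.

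By density the order was another, and compact genes led it. Among genes with at least 10 kb of intron and 4 shared peaks in each library, Trp53i11 had 56.2 and 75.0 peaks per 100 kb (6 and 8 peaks). Unc93b1, which carries nucleic acid sensing Toll-like receptors to endosomes, had 35.7 and 53.6. E2f2, a transcription factor of the cell cycle, had 32.3 and 48.5, Grk2, a kinase of G protein-coupled receptors, 37.7 in each, Il17ra, the interleukin 17 receptor, 31.7 and 38.0, and Fgd2 29.4 and 58.8. Over all hosts the median was 3.87 and 5.15. Apobec2, a member of the cytidine deaminase family known from muscle, had 44.1 and 35.3 without a promoter peak in either library. Tmem267 (35.1 in each), Ptp4a3 (31.2 and 39.0), Milr1, a receptor of mast cells (31.5 in each), and the histone methyltransferase gene Setd1b (30.6 and 36.7) were among the others.

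Some genes had intronic peaks and no promoter peak. In 1025 genes that hosted in both libraries neither library had a peak at a start site of the gene. Those with most shared peaks, named after their values were seen, were Sfi1 (15 and 21 peaks), Pakap (16 and 23) and Macf1, a cytoskeletal linker (13 and 17). The megakaryocyte and endothelial gene Vwf, which encodes von Willebrand factor, had 5 and 9 intronic peaks and Selp, P-selectin of platelets, 5 and 4, both with no promoter peak.

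How far the hosts followed the cell types of spleen was read from lists of marker genes, as counts beside the 27.6% and 35.0% of all genes. The B cell list led in counts. Of its 27 genes that could host, 17 and 21 did, with 115 and 203 peaks, or 4.41 and 7.78 per 100 kb of intron against 1.22 and 2.06 over all protein-coding genes. Besides Foxp1 and Ebf1, Pax5, which maintains B cell identity, held 12 and 15 peaks. Its 3 strongest had signals of 4.32 and 7.18, 3.89 and 6.51, and 3.27 and 5.15, the first in a first intron and the others in intron number 4. The surface genes Cd22 and Cd37, with 7.29 and 1.80 kb of intron, held 0 in both libraries although each had a promoter peak.

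T cell genes were less dense. Of 28, 15 and 16 hosted, with 1.96 and 4.20 peaks per 100 kb. Ets1 held 7 and 15, Skap1, an adaptor of T cell receptor signalling, 6 and 6, and Lef1, a transcription factor of T cell development, 3 and 8. The costimulatory receptor gene Cd28 held 0 in 50.4 kb of intron despite a promoter peak, and the CD3 genes Cd3d and Cd3e held 0. The strongest peaks of Bcl11b, a T cell identity factor, had signals of 1.08 and 1.35 in its first intron, against medians of 1.08 and 0.928 over all intronic peaks.

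Erythroid genes hosted in 9 and 13 of 20, with 3.59 and 5.65 peaks per 100 kb. Ank1, the red cell ankyrin, held 6 and 8, Sptb 4 and 8, and Zfpm1, the GATA1 partner FOG1, 10 and 10, a gene that also lies inside Gm20388. The membrane skeleton gene Add2 held 0 in 75.1 kb, and Epb42 and the erythropoietin receptor gene Epor held 0. Macrophage and monocyte genes hosted in 4 and 9 of 20 (1.13 and 2.63 per 100 kb), with 3 and 3 peaks in Spi1 and 1 and 3 in the integrin gene Itgam, and 0 in Axl, C1qa and C1qb. The median density of the erythroid list was 0 in replicate 1 and 5.93 in replicate 2, and that of the macrophage list was 0 in both.

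Smaller lists varied. Dendritic cell genes hosted in 7 and 8 of 13, among them Tcf4, the factor of plasmacytoid cells (8 and 16 peaks), and the cytokine receptor gene Flt3 (5 and 9), while Batf3, Bst2 and Clec9a held 0. Plasma cell genes hosted in 4 and 5 of 8, with 4 and 6 peaks in Prdm1 and 1 and 3 in Irf4, and none in Jchain, Mzb1 and Xbp1. NK cell genes hosted in 3 and 3 of 11, with 2 and 2 peaks in Klrb1c. Megakaryocyte genes hosted in 5 of 7 in each library and had the highest pooled density, 5.62 and 8.43 per 100 kb. The strongest peak among the genes of the 11 spleen lists lay in Itga2b, the platelet integrin, with signals of 6.72 and 8.87. Fli1, an ETS factor which lymphoid and endothelial cells also express, held 6 and 10 of the list's 20 and 30 peaks.

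Neutrophil genes held 0 peaks in 11 genes with 71.2 kb of intron in both libraries, and ribosomal protein genes 0 in 9 with 15.5 kb. Both lists thus hold little intron sequence, and a peak there had little room. Endothelial genes hosted in 5 and 7 of 12 (0.910 and 1.62 per 100 kb), with 4 and 5 peaks in the adhesion gene Pecam1, and stromal genes in 3 and 3 of 14, with 2 and 3 in the smooth muscle actin gene Acta2. Lists of other tissues served as background. Neuron genes had 8 and 13 peaks in 16372 kb, or 0.0489 and 0.0794 per 100 kb, liver genes 0.730 and 1.46, and muscle genes 0.489 and 0.717. Long genes weigh most in these pooled values, and the neuron genes had a median of 1051 kb of intron. The median density of the muscle genes was 1.74 and 2.86, above the 0.642 and 2.41 of the T cell list. By the share of genes hosting, muscle was high too (8 and 10 of 12), so that neither the share nor the median separated spleen from other tissues. Of 11 spleen lists 8 and 9 were above all protein-coding genes in pooled density, and the lists of other tissues and of ribosomal proteins were below.

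**Figure D5:**
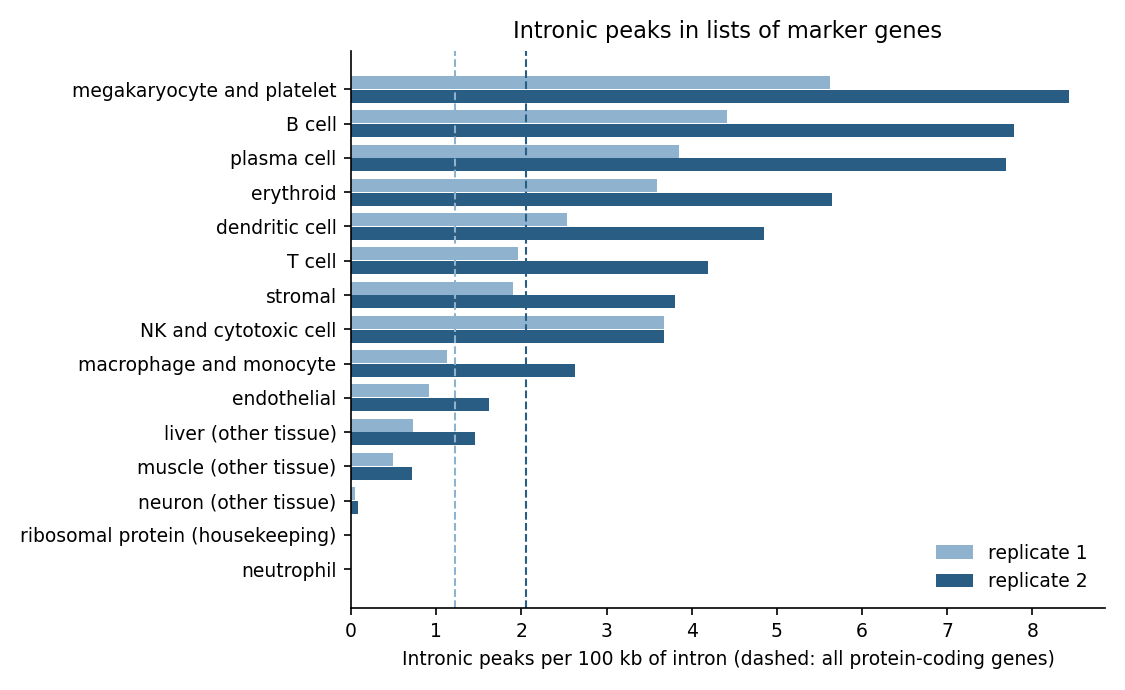
Intronic peaks per 100 kb of intron sequence, pooled over the genes of each marker list, in each library, with all protein-coding genes as dashed lines (1.22 and 2.06). The bars of megakaryocyte (5.62 and 8.43) and B cell genes (4.41 and 7.78) are the longest, and those of neuron genes (0.0489 and 0.0794) are near 0.

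Chromosomes differed as well. The X chromosome had 4.56 (3.93 to 5.27) and 8.28 (7.42 to 9.22) intronic peaks per Mb of intron sequence against 12.4 and 21.0 on the autosomes. It was low in other measures at the same time, with promoter peaks at 35.8% and 39.2% of its protein-coding genes against 54.7% and 58.2%, and 1.58 and 2.46 intergenic peaks per Mb of chromosome against 4.39 and 6.96. What part gene content has in this was not tested. Chromosome 11 had 18.8 and 31.8 intronic peaks per Mb and chromosome 19 had 16.1 and 27.2.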

How the data were processed

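DNase-seq was run on 2 libraries of 1 group. Per the labels and the deposited readme, the authors derived peaks and a cut rate track from each library's alignments and footprints from both, on mm10 without pooling. The aligner, peak caller and footprint caller are not named in the sources read. The authors' peak lists carry a signal per peak of unstated scale. The authors' cut rate track gives each listed run of bases an FDR (q-value), all under 0.05. The more stringent of 2 deposited lists was used. Total depth is not given, so precision rests on numbers of peaks.

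Genes and start sites came from the GENCODE vM21 basic annotation and sequence from the matching genome. Coordinates count from 1. Exons of all gene types were removed from introns, whereas the plan named those of protein-coding transcripts, which became an alternative. A first intron is the first of any basic transcript of the host. Peaks overlapping by 1 base were shared. Densities carry exact Poisson and shares Wilson intervals at 95%. Numpy 2.4.6, pandas 2.3.3 and scipy 1.17.1 were used, and the counting steps were tested on simulated data. The members, gene lists and consensus sequences were chosen with earlier results of these data known. Named were the 12 genes with most shared peaks, the 12 densest, the hosts of the 10 shared peaks with the best mean rank of signal, and in each spleen list 3 with most shared peaks and up to 3 with none. Exceptions, chosen after values were seen, were the peaks of Bcl11b and Pax5 and genes without a promoter peak. Alternatives covered the list, threshold, windows, exons, gene models, overlap, search window and single libraries. No sequence of chromosome 18 is shown. Some genes named by this rule are not reported here.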

Additional observations from a re-analysis of the deposited data

How the results depend on the processing

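No paired analysis was possible because the 2 libraries form 1 group. Of 73 alternative values from both libraries 53 stayed within the spread between them and 20 moved further. Another 52 left out 1 library, which with 2 libraries cannot move a mean beyond their SD, and 1 of these changed sides. With the longer deposited list there were 24020 intronic peaks (mean of both libraries, 14870 before), 40.5% of genes hosted (31.3%), and the T cell list hosted in 71.4% (55.4%) with a median density of 4.47 per 100 kb (1.52). With the strongest 21227 peaks of each library there were 3818, or 17.99% of peaks (28.4%). The ratio of first to later introns was then 1.61 (1.36), 11.9% of genes hosted, the 10% of hosts with most peaks held 30.4% (35.9%), the B cell median density was 1.20 (6.16), the T cell list hosted in 28.6% with a median of 0, and the erythroid list in 25.0% (55.0%). That ratio was 1.58 with a window of 0.5 kb. Beyond 100 kb it was 0.726 with a window of 2 kb and 0.474 without Gm20388 (0.774). At 10 to 20 kb it ranged from 0.895 to 1.16 as 1 library or the other was left out (1.03). Searching whole peaks put RUNX at 3.53%, the E-box at 16.5%, AP-1 at 5.96% and SP/KLF at 10.5%. The causes were not tested beyond what each change itself removes or adds. Sharing needs both libraries and has no value with 1 left out, and the bin of 1 to 2 kb has none with a window of 2 kb. Leaving out Gm20388, asking for an intron of a basic transcript and taking exons of protein-coding genes alone were chosen after seeing the data. Total depth is unknown, so absence of a peak in replicate 1 does not show closed chromatin, and with 2 libraries the SDs are themselves imprecise.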

Other observations

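Some members' sequences ran with the strand of their host as often 1 kb away as in the peak. RUNX letters lay along the host's direction of transcription in 63.1% and 62.3% of matches in centres and in 62.0% and 59.6% of those 1 kb away, and NFY letters in 43.0% and 41.3% against 42.0% and 41.8%.

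In replicate 2 AP-1 letters were in 6.53% of intronic centres seen there alone and in 4.98% of shared ones. In replicate 1, CTCF letters were in 35.5% of the 692 intronic centres that replicate 2 lacked and in 18.7% of shared ones, while in replicate 2 they were in 5.03% and 18.6%.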
